A study of Mus musculus with 34 samples.

Results

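The 53 genes described here encode the proteins that copy DNA and make its building blocks. They were taken as a list of gene symbols and matched to 53 of the 17515 RefSeq transcripts in the RNA table, with 1 row per gene. Peaks were assigned to them where the H3K4me3, KDM5A and KDM5C tables name the gene within 1000 bp of its transcription start site. By role, 9 genes serve origin licensing, 14 the helicase and its activation, 20 the polymerases and the fork, 5 nucleotide synthesis, and 5 the copying of chromatin and removal of uracil. All 53 passed the filter on low RNA values, a log2 level of at least 1 in at least 2 of 12 libraries, which left 13534 transcripts for testing.

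Before S phase, the origin recognition complex with Cdc6 and Cdt1 loads the MCM helicase onto DNA, and geminin (Gmnn) later blocks reloading. The kinase Cdc7 with its activator Dbf4, followed by Cdc45, the GINS complex and Mcm10, turns the loaded helicase into a moving one, and DNA polymerases then copy the strands while histone chaperones and Dnmt1 restore chromatin. Transcription of many of these genes is known to be driven by E2F factors as cells leave the resting state. Confluent 3T3-L1 cells, an established mouse preadipocyte line, are known to re-enter the cell cycle after the adipogenic stimulus and to divide before they turn into fat cells.

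RNA was measured in 12 polyA-selected libraries, 2 for each of 6 groups. The groups were shKdm5ABC cells, which carried lentiviral short hairpins against Kdm5a, Kdm5b and Kdm5c, and shLuc cells, which carried the control hairpin, each at day 0 (confluent for 2 days, before induction), at 4 hours and at day 2 of differentiation. All RNA and H3K4me3 cells had been exposed to lentivirus and 6 ug/mL polybrene for 24 h, starting 4 days before induction, and all induced cells received dexamethasone, insulin, IBMX and serum. H3K4me3 ChIP covered the same 6 groups (12 libraries), KDM5A ChIP the 3 times (6 libraries) and KDM5C ChIP day 2 (2 libraries), and no virus is stated for the KDM5A and KDM5C cells. For ChIP the cells were cross-linked in DSG (0.2 mM, 45 min) and then in formaldehyde (1%, 10 min). The KDM5 proteins remove methyl groups from lysine 4 of histone H3, a mark found at active promoters. The replicates are numbered experiments of 1 cell line, and whether they are separate cultures is not stated, so each p measures only the spread between these libraries.

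The targets of the hairpins were measured first. Kdm5a had log2 levels (the deposited log2 scale of normalized tags per kb) of 6.77 to 7.17 in the 6 shKdm5ABC libraries, against 7.73 to 8.03 in the 6 shLuc libraries. Kdm5c had 6.52 to 7.17 in shKdm5ABC libraries, against 7.98 to 8.49 in shLuc libraries, and Kdm5b was lower in both shKdm5ABC libraries than in both shLuc libraries at each time. Across the 3 genes and 3 times 38.0% to 63.9% of the shLuc level was left (limma, adjusted p 0.00290 to 0.0216). All 7 preadipocyte and fibroblast markers were detected, with summed log2 levels at day 2 of 12.69 to 13.19 in shKdm5ABC and 11.93 to 12.55 in shLuc libraries. The 6 adipocyte markers summed to 14.00 to 14.70 in shKdm5ABC and 14.93 to 15.23 in shLuc libraries at that time. The 5 macrophage markers (4.67 to 4.85 in shKdm5ABC and 4.45 to 4.94 in shLuc), the 4 endothelial markers (1.22 to 1.37 in shKdm5ABC and 1.18 to 1.49 in shLuc) and Des (3.90 to 4.07 in shKdm5ABC and 3.55 to 4.18 in shLuc), the 1 muscle marker of 4 in the table, overlapped between the groups at day 2. Adgre1 and Ptprc, which define macrophages and leukocytes, stayed at -4.55 or lower in all 12 libraries. The summed preadipocyte and adipocyte marker levels therefore moved with the comparison at day 2, and their part in the results below was not tested. Not every marker moved: Adipoq (9.44 and 10.52 in shKdm5ABC, 9.27 and 10.40 in shLuc), Plin1, Dlk1 and Cd34 overlapped between the groups. Fabp4, Lpl, Pparg and Cebpa were lower in shKdm5ABC libraries without overlap, and Pdgfra, Pdgfrb, Ly6a, Col1a1 and Col3a1 were higher. Recovered library totals were 8380000 to 13600000 tags for H3K4me3, 3870000 to 17600000 for KDM5A and 2950000 to 8130000 for KDM5C, if all were scaled to 1 common total, and the depth of the RNA libraries is unknown.

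Promoter sequences were searched for 8-letter words that E2F factors are known to bind, because many of these genes are textbook E2F targets. RefSeq promoters (GRCm38.p6) were at hand for 45 of the 53 genes. In the 250 bases before the start, 16 of the 45 (35.6%) held TTTCCCGC, TTCCCGCC, TTTGGCGC or TTTCGCGC on either strand, of which the first 2 words can overlap. The same words were found in 6.36% of the 10432 genes with both a promoter entry and an RNA test, and in 3.36% of all 27025 genes with an entry. By role the words occurred in 4 of 8 licensing genes, 5 of 10 helicase genes, 3 of 17 polymerase and fork genes, 1 of 5 nucleotide genes and 3 of 5 chromatin genes. The letters TTTGAA and TTCGAA, which resemble the element of later cell cycle genes, occurred in 9 of the 45 members, in 14.7% of the genes tested in RNA and in 19.6% of all genes. A match describes letters only, and none was tested for binding here.

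The stretches printed here hold such a word with 20 bases on each side, in the direction of transcription, with the word or its reverse complement in capitals. The first 4 belong to genes whose RNA values are given library by library below, and the Mcm5 and Mcm6 promoters were added after their values were seen because each holds more than 1 word. They lie at chr17:56040349-56040396 (Chaf1a, plus strand), chr7:102441608-102441655 (Rrm1, plus strand), chr11:98907993-98908040 (Cdc6, plus strand), chr9:20952815-20952862 (Dnmt1, minus strand), chr8:75109336-75109387 (Mcm5, plus strand) and chr1:128359725-128359835 (Mcm6, minus strand), all GRCm38.p6.
Chaf1a: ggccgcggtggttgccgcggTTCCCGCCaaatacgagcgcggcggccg
Rrm1: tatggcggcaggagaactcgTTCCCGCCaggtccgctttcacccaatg
Cdc6: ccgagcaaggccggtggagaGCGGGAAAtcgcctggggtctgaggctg
Dnmt1: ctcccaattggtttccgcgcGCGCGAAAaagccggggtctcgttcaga
Mcm5: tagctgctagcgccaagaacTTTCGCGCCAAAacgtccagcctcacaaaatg
Mcm6: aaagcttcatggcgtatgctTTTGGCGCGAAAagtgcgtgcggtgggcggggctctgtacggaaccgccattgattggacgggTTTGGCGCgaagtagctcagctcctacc
In Mcm5 the words TTTCGCGC and the reverse complement of TTTGGCGC overlap and are printed as 1 block. In Mcm6 TTTGGCGC and the reverse complement of TTTCGCGC overlap in the same way, and a second TTTGGCGC follows closer to the start. Between the last word and the start lay 39 bases in Chaf1a, 59 in Rrm1, 130 in Cdc6, 211 in Dnmt1, 141 in Mcm5 and 39 in Mcm6.

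Between day 0 and day 2 of differentiation nearly the whole replication machinery rose in shLuc cells. Limma called 47 of the 53 genes higher at day 2 than at day 0 and 0 lower, against 27.1% of all transcripts called higher and 27.8% called lower. The median change of the 53 was 1.39 on the log2 scale, beside -0.01 over all transcripts tested. Rrm2, the small subunit of ribonucleotide reductase, changed most (3.64, SE 0.21), followed by Cdc45 (3.31), Tk1 (3.10, thymidine kinase) and Cdc6 (3.05). The 6 genes not called were Orc3, Orc4, Pold2, Pold3, Rfc3 and Chaf1b, whose changes ran from 0.21 to 0.48. With the replicate number as a block, a fit in which same-numbered libraries share a term, 50 of the 53 were called higher (4482 of all 13534 transcripts). Over the same interval the summed adipocyte markers were at 14.93 to 15.23 at day 2 and 11.63 to 11.96 at day 0, and the preadipocyte markers at 11.93 to 12.55 at day 2 and 14.61 to 14.95 at day 0, and their part in the change was not tested.

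The first 4 hours were compared in the same way. Limma called 7 of the 53 genes higher at 4 hours than at day 0 in shLuc cells and 12 lower, against 20.7% of all transcripts called higher and 21.6% called lower. With each library centred on its median the split was 10 higher and 9 lower, and after quantile normalization 8 and 8, so the balance of directions depends on the scaling, with 12 of 53 near the background and 7 of 53 below it. With the replicate number as a block 13 were higher and 16 lower (28.4% and 30.1% of all transcripts). Without shLuc day 0 replicate 1, and likewise without replicate 2, 12 genes were called in place of 19. From 4 hours to day 2, 46 genes rose and 1 fell (22.9% and 23.5% of all transcripts).

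The 7 early genes were Rrm2 (3.39), Fen1 (2.14), Pcna (1.64), Orc2 (1.17), Dnmt1 (1.10), Rrm1 (0.78) and Orc6 (0.55). They include both subunits of ribonucleotide reductase, the sliding clamp, the flap nuclease that trims Okazaki fragments and the maintenance DNA methyltransferase. None of the 14 helicase genes was among them. With the block, however, 2 of the 14 helicase genes were higher and 6 lower (28.4% and 30.1% of all transcripts). The 12 genes that fell at 4 hours were Gins1 (-1.31), Lig1 (-1.11), Pole2 (-0.78), Rfc3 (-0.74), Dbf4 (-0.73), Mcm2 (-0.67), Pold2 (-0.66), Mcm6 (-0.59), Pola2 (-0.58), Rfc4 (-0.55), Pold3 (-0.54) and Mcm3 (-0.48). These are 5 helicase genes and 7 polymerase and fork genes, and all 12 rose between 4 hours and day 2, as did 46 of all 53. Both steps use the same shLuc 4-hour libraries, so a low value there lowers the first step and raises the second. Of the 7 early genes, Rrm1 and Orc6 were the only ones that rose further between 4 hours and day 2 by limma, and Fen1 fell by 0.52 in that interval.

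**Figure D1:**
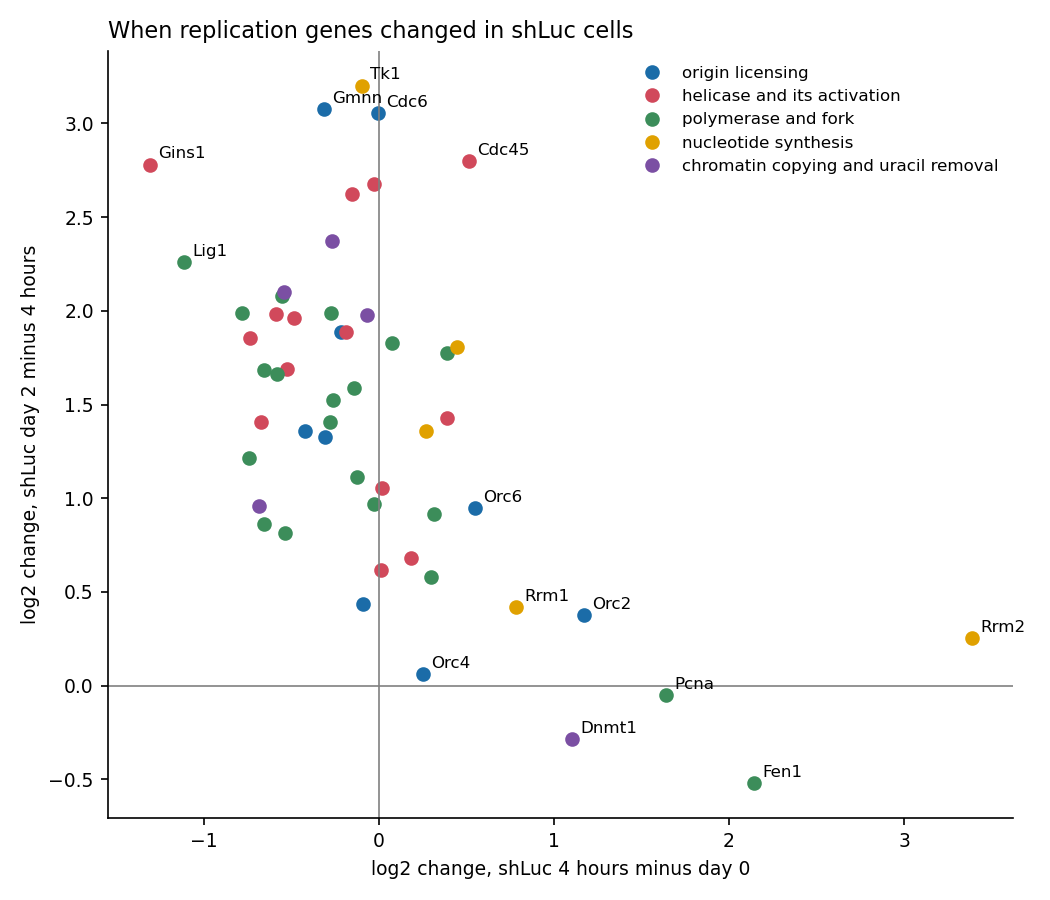
Log2 change in RNA of the 53 genes in shLuc cells, from day 0 to 4 hours on the horizontal axis and from 4 hours to day 2 on the vertical axis, with 1 point per gene and colours for the 5 roles. Most points lie high near or left of 0 (late rise), while Rrm2, Fen1, Pcna, Orc2 and Dnmt1 lie to the right at 1.10 or more and between -0.52 and 0.38 on the vertical axis.

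In shKdm5ABC cells 39 of the 53 genes rose between day 0 and day 2 and 0 fell, against 22% and 23.1% of all transcripts. At 4 hours 10 were higher and 11 lower than at day 0 (22.4% and 23.7% of all transcripts), a split that was 12 and 8 after median centring and 12 and 6 after quantile normalization. From 4 hours to day 2, 37 rose and 5 fell (20.4% and 20.9% of all transcripts). The 5 that fell were Rrm2 (-1.50), Dnmt1 (-0.85), Fen1 (-0.83), Rrm1 (-0.50) and Pcna (-0.44), all of them early genes. Of the 47 genes that rose in shLuc cells, the median rise was 0.93 in shKdm5ABC cells and 1.48 in shLuc cells, and of all 53 genes 50 had the smaller change in shKdm5ABC cells. The 47 were chosen by their call in shLuc cells, so their medians are a description.

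At day 2 all 53 genes had a lower mean in shKdm5ABC than in shLuc cells, with a median change of -0.60 on the log2 scale beside -0.00 over all transcripts. Limma called 19 of the 53 lower and 0 higher, against 3.34% of all transcripts called lower and 5.66% called higher. In 48 of the 53 both shKdm5ABC libraries were below both shLuc libraries, which was so for 27.1% of all transcripts. The 5 genes whose groups overlapped were Orc3, Orc5, Cdc7, Dut and Rfc3. Bulk RNA cannot tell fewer cells in S phase from less of each RNA per cell.

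The number called at day 2 depended on the spread estimate and on each of the 4 libraries. With the replicate number as a block 42 genes were lower (14.2% of all transcripts called lower), and with only the compared groups in the fit 0 were called. Without shLuc replicate 1 the number was 0, without shLuc replicate 2 it was 5, and without shKdm5ABC replicate 1 or 2 it was 2 or 4. In those 4 fits the median change lay between -0.46 and -0.72 and 51 or 52 of the 53 genes stayed lower. They and the fit on the compared groups use fewer libraries, and the share of all transcripts called in them is not given here. Whether calls were lost more among the 53 genes than among all transcripts was therefore not tested.

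**Figure D2:**
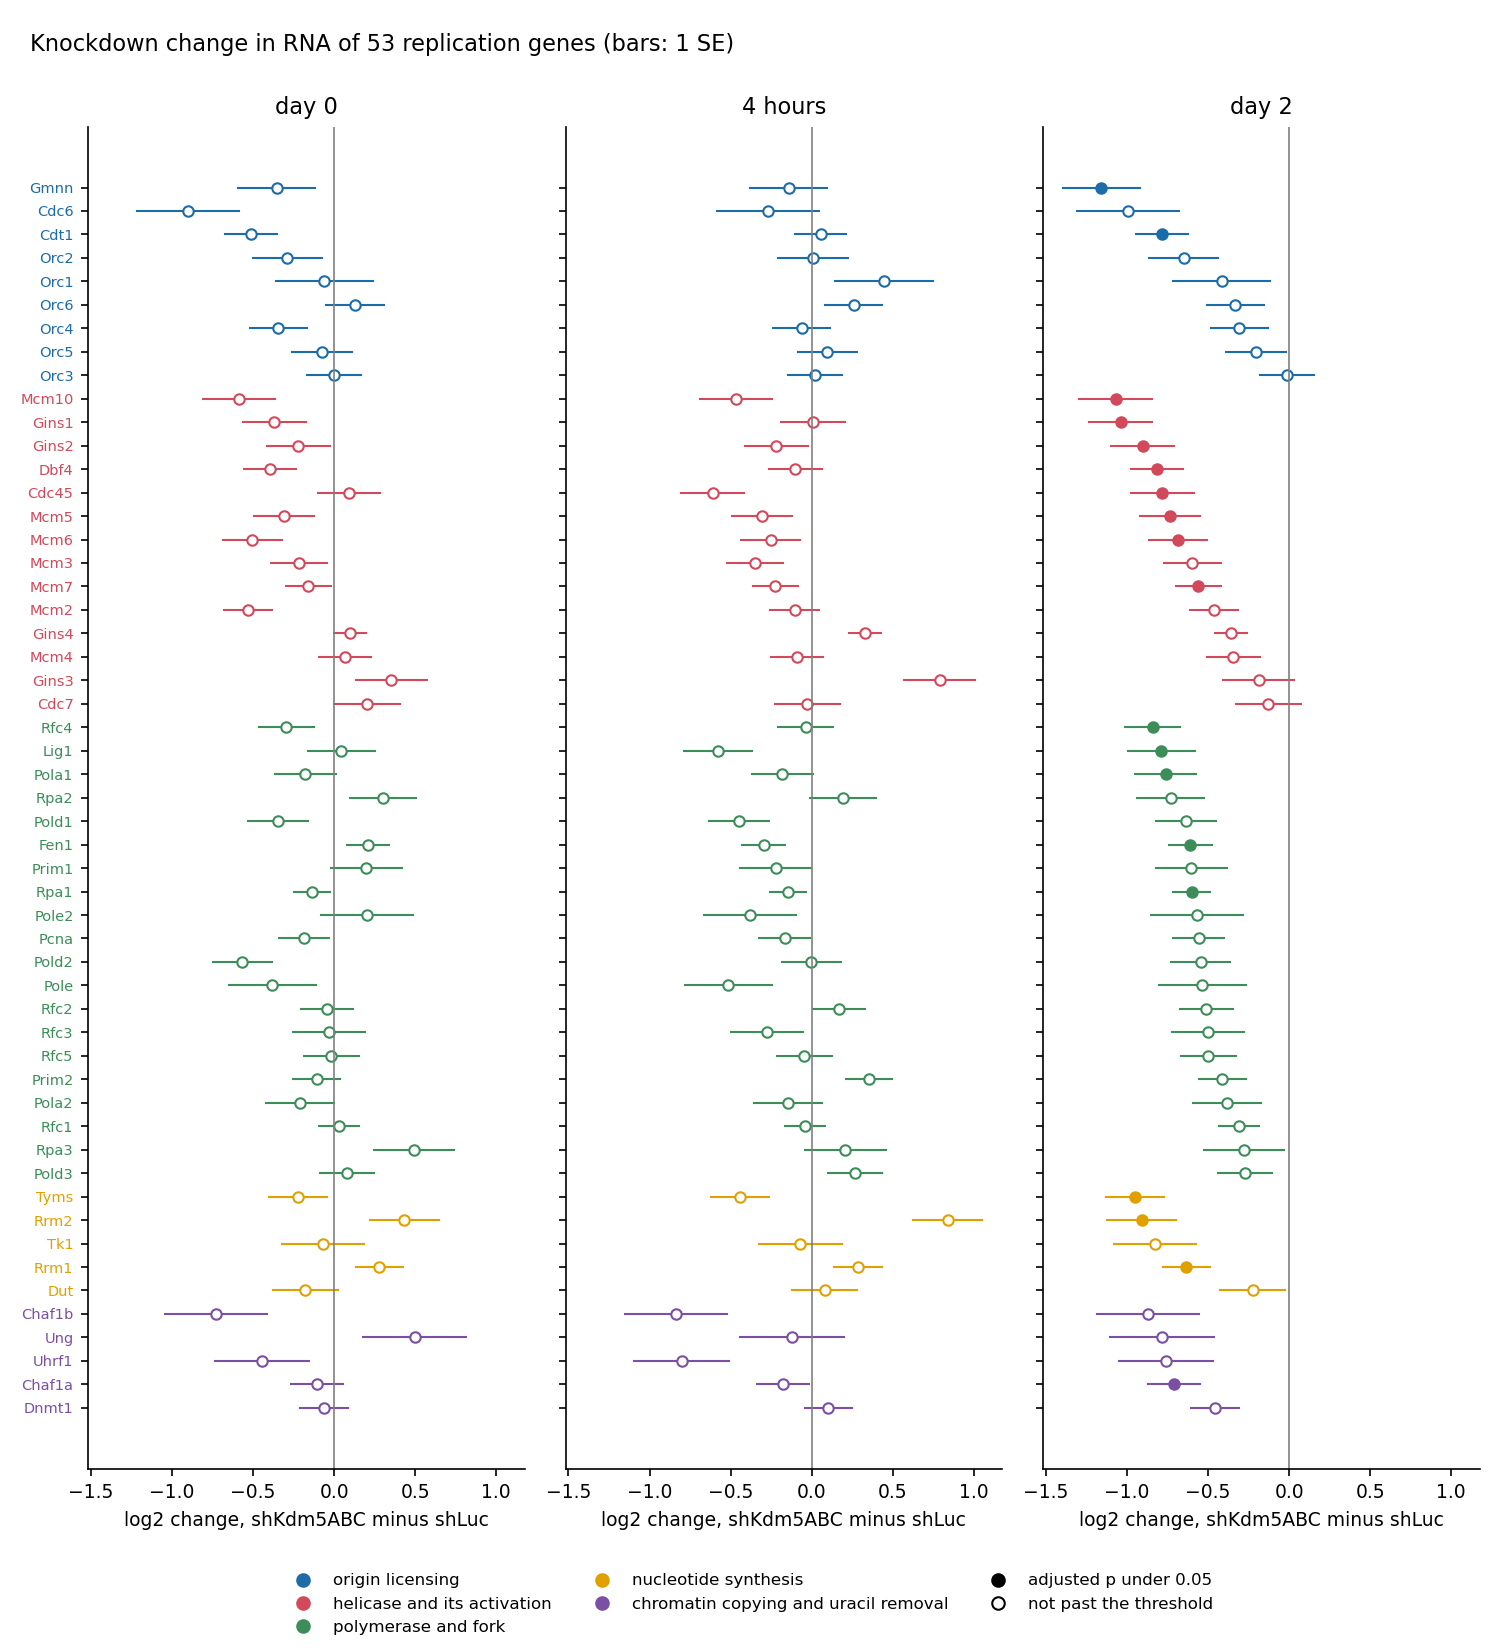
Log2 difference in RNA, shKdm5ABC minus shLuc, for each of the 53 genes at day 0, 4 hours and day 2, with bars of 1 SE, genes grouped by role and filled points for an adjusted p under 0.05. At day 2 all 53 points lie left of 0, between -1.16 (Gmnn) and -0.01 (Orc3), while at day 0 and 4 hours they lie on both sides and none is filled.

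At day 0 and at 4 hours limma called 0 of the 53 genes between shKdm5ABC and shLuc cells, where 1.51% and 1.44% of all transcripts were called. At an unadjusted p under 0.05 there were 8 genes at day 0 and 11 at 4 hours. With the replicate block 1 gene was higher and 6 were lower at day 0 (4.38% and 5.05% of all transcripts), and 3 were higher and 1 was lower at 4 hours (4.58% and 5.1%). The medians were -0.11 at day 0 and -0.10 at 4 hours. The summed macrophage markers, carried by Cd68, were higher in the knockdown at these times, with 5.82 to 6.01 in shKdm5ABC and 4.37 to 4.56 in shLuc libraries at day 0 and 5.55 to 5.83 in shKdm5ABC and 4.23 to 4.75 in shLuc libraries at 4 hours, and their part was not tested. Without overlap, adipocyte markers were also higher at 4 hours (12.15 to 12.17 in shKdm5ABC and 11.86 to 12.01 in shLuc libraries) and endothelial markers at day 0 (1.36 to 1.77 in shKdm5ABC and 1.16 to 1.26 in shLuc libraries).

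The difference between the knockdown effects of day 2 and day 0 was called for 0 genes, with 16 at an unadjusted p under 0.05 and a median of -0.43 (0.31% of all transcripts called). The difference between day 2 and 4 hours was also called for 0, with 18 unadjusted and a median of -0.49 (0.148% of all transcripts called). With the block 7 genes (2.91% of all transcripts) and 12 genes (3.41%) had a lower effect at day 2. Rrm1, Rrm2, Rpa2 and Gins4 were in both of those lists. Without shKdm5ABC day 2 replicate 2 the fit with no block called 1 gene between day 2 and 4 hours.

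By role, limma called 2 of 9 licensing genes (median change -0.42), 8 of 14 helicase genes (-0.64), 5 of 20 polymerase and fork genes (-0.55), 3 of 5 nucleotide genes (-0.83) and 1 of 5 chromatin genes (-0.76). With the block these counts were 6, 11, 16, 4 and 5. No test of the difference between subgroups was made. Grouped by their early course, the medians were -0.61 in the 7 early genes (3 called), -0.58 in the 12 genes that fell at 4 hours (5 called) and -0.60 in the other 34 (11 called).

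The licensing genes had changes from -1.16 to -0.01. Gmnn, the inhibitor of Cdt1, had log2 levels of 6.42 and 5.99 in shKdm5ABC libraries at day 2, against 7.64 and 7.09 in shLuc libraries. The groups did not overlap, and the change of -1.16 (SE 0.24, adjusted p 0.0179 by limma) left 44.8% of the shLuc level, the lowest share among the 53. At day 0 the same gene had 4.43 and 4.06 in shKdm5ABC libraries and 4.71 and 4.48 in shLuc libraries, so it rose at day 2 in both cell populations.

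Cdt1, the loader that geminin blocks, had 7.21 and 7.12 in shKdm5ABC libraries at day 2, against 8.13 and 7.77 in shLuc libraries (-0.78, SE 0.16, adjusted p 0.0178 by limma). Its levels at day 0 were 5.66 and 5.87 in shKdm5ABC libraries and 6.20 and 6.35 in shLuc libraries, again without overlap (-0.51, adjusted p 0.184, 0.0497 with the block). At 4 hours the groups overlapped, with 6.23 and 6.00 in shKdm5ABC and 6.04 and 6.09 in shLuc libraries.

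Cdc6, the other helicase loader, had the lowest levels of the 53 at day 0, with 1.68 and 1.95 in shKdm5ABC libraries and 2.56 and 2.88 in shLuc libraries. At day 2 it had 4.71 and 4.84 in shKdm5ABC libraries, against 5.94 and 5.60 in shLuc libraries. The groups were apart at both times, but neither difference passed the threshold (-0.90, adjusted p 0.239 at day 0, and -0.99, adjusted p 0.0771 at day 2, 0.0242 with the block).

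None of the 6 subunits of the origin recognition complex was called at day 2. Their differences ran from -0.01 (Orc3) to -0.65 (Orc2, adjusted p 0.0884, 0.000988 with the block), and Orc4 and Orc6 were also called with the block (adjusted p 0.0118 and 0.0400). Orc3 and Orc4 also were not called in shLuc cells between any of the 3 times in the fit with no block. With the block all 9 licensing genes were called higher at day 2 than at day 0 in shLuc cells (4482 of all 13534 transcripts). In all 9 both day 2 libraries lay above both day 0 libraries (5095 of all transcripts).

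The helicase genes gave 8 of the 19 calls. Mcm10, which helps start unwinding, had 5.55 and 5.49 in shKdm5ABC libraries at day 2, against 6.69 and 6.49 in shLuc libraries (-1.07, SE 0.22, adjusted p 0.0187 by limma). Gins1, a subunit of the GINS complex, had 5.25 and 5.29 in shKdm5ABC libraries, against 6.55 and 6.08 in shLuc libraries (-1.04, SE 0.20, adjusted p 0.0127). Dbf4, the activator of the Cdc7 kinase, had 7.09 and 7.04 in shKdm5ABC libraries, against 8.0 and 7.77 in shLuc libraries (-0.82, SE 0.16, adjusted p 0.0157). In each of the 3 genes the shKdm5ABC libraries lay close together and below both shLuc libraries.

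Gins1 and Dbf4 were also among the genes with a dip at 4 hours. Gins1 had 4.84 and 4.85 at day 0, 3.43 and 3.63 at 4 hours and 6.55 and 6.08 at day 2 in shLuc libraries. In shKdm5ABC libraries it had 4.54 and 4.41, then 3.49 and 3.59, then 5.25 and 5.29, so the dip was present in both cell populations and the levels at 4 hours overlapped. Dbf4 had 6.58 and 6.94 at day 0, 5.95 and 6.10 at 4 hours and 8.0 and 7.77 at day 2 in shLuc libraries.

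Within a complex some partners were called and others were not. Of the MCM subunits Mcm5 (-0.73), Mcm6 (-0.69) and Mcm7 (-0.56) fell by limma, while Mcm2 (-0.46), Mcm3 (-0.60) and Mcm4 (-0.34) were not called, the first 2 of which were with the block (adjusted p 0.0109 and 0.0134). Of the GINS subunits Gins1 and Gins2 (-0.90) were lower, and Gins3 (-0.19) and Gins4 (-0.36, adjusted p 0.00757 with the block) were not called. Cdc45, the partner of both complexes in the moving helicase, was lower by 0.78. Cdc7, the kinase itself, had a change of -0.13 with overlapping groups, beside the lower level of its activator Dbf4.

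**Figure D3:**
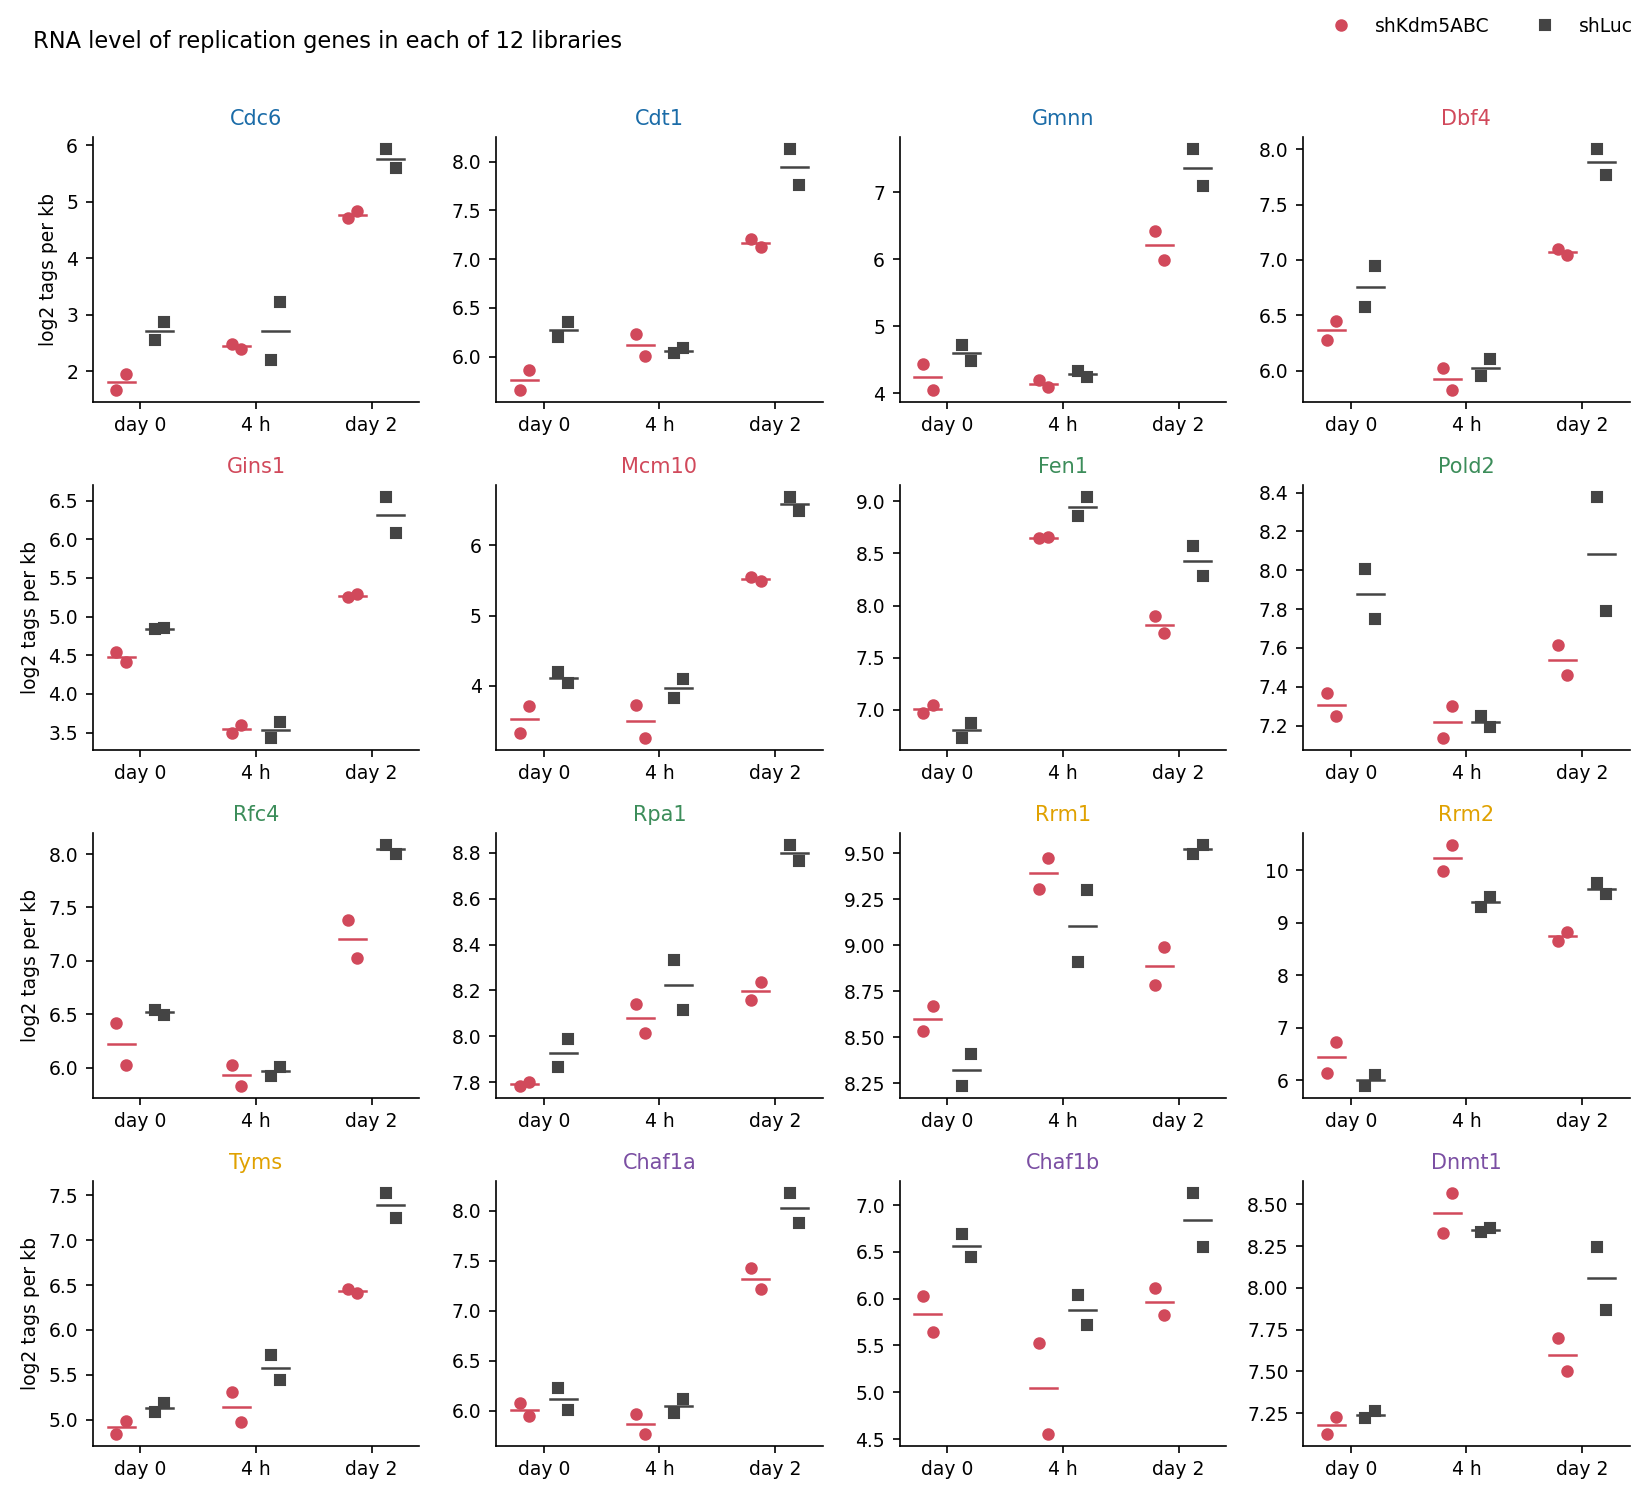
RNA levels (log2 tags per kb) of 16 of the genes in each of the 12 libraries at day 0, 4 hours and day 2, with red circles for shKdm5ABC, dark squares for shLuc, lines for group means, a separate vertical scale for each gene and title colours for the 5 roles. At day 2 the shKdm5ABC points lie below both shLuc points in all 16 panels, and Rrm2, Fen1 and Dnmt1 are already high at 4 hours in both cell populations.

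At the fork, Rpa1, the large subunit of the single-strand binding protein, had 8.16 and 8.24 in shKdm5ABC libraries at day 2, against 8.83 and 8.77 in shLuc libraries (-0.60, SE 0.11, adjusted p 0.0124 by limma). Rfc4, a subunit of the clamp loader, had 7.38 and 7.02 in shKdm5ABC libraries, against 8.08 and 8.0 in shLuc libraries (-0.84, SE 0.17, adjusted p 0.0167). Its partners Rfc1, Rfc2, Rfc3 and Rfc5 had changes of -0.31 to -0.51 and were not called, though all 4 were with the block (adjusted p 0.00956 to 0.0275). Lig1, the ligase that seals Okazaki fragments, was lower by 0.79 and Pola1, the catalytic subunit of polymerase alpha, by 0.76.

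Fen1 followed the early course in both cell populations. It had 6.73 and 6.87 at day 0, 8.85 and 9.04 at 4 hours and 8.57 and 8.28 at day 2 in shLuc libraries. In shKdm5ABC libraries it had 6.97 and 7.05, then 8.65 and 8.65, then 7.90 and 7.74. The 4-hour levels were 4.42 times those of day 0 in shLuc cells, and the day 2 difference was -0.61 (SE 0.13, adjusted p 0.0208 by limma).

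Pold2, the accessory subunit of polymerase delta, was the gene with the smallest change between day 0 and day 2 in shLuc cells. It had 8.01 and 7.75 at day 0, 7.25 and 7.19 at 4 hours and 8.38 and 7.79 at day 2 in shLuc libraries, so days 0 and 2 overlapped. In shKdm5ABC libraries it had 7.37 and 7.25, then 7.14 and 7.30, then 7.62 and 7.46. The difference was of one size at day 0 (-0.57, adjusted p 0.196, 0.0326 with the block) and at day 2 (-0.54, adjusted p 0.0927, 0.0169 with the block), with no overlap at either time.

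The nucleotide synthesis genes had a median rise of 2.25 between day 0 and day 2 in shLuc cells and of 1.58 in shKdm5ABC cells. Rrm2 had 5.90 and 6.11 at day 0, 9.30 and 9.49 at 4 hours and 9.75 and 9.54 at day 2 in shLuc libraries. In shKdm5ABC libraries it had 6.13 and 6.74, then 9.99 and 10.48, then 8.66 and 8.82. The shKdm5ABC libraries were above both shLuc libraries at day 0 and at 4 hours (0.43, adjusted p 0.449, and 0.84, adjusted p 0.101, 0.00821 with the block) and below both at day 2 (-0.91, SE 0.21, adjusted p 0.0287 by limma). The difference between the effects at day 2 and 4 hours was -1.75 (SE 0.30, adjusted p 0.0593, 0.00288 with the block).

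Rrm1, the large subunit, had the same order of groups. In shLuc libraries it had 8.24 and 8.41 at day 0, 8.91 and 9.30 at 4 hours and 9.50 and 9.54 at day 2. In shKdm5ABC libraries it had 8.53 and 8.67, then 9.30 and 9.48, then 8.78 and 8.99. The day 2 difference was -0.63 (SE 0.15, adjusted p 0.0273 by limma), and the rise from day 0 to day 2 was called in shLuc cells (1.2) and not in shKdm5ABC cells (0.29, adjusted p 0.140, 0.0132 with the block).

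Tyms, which makes thymidylate, had 6.46 and 6.41 in shKdm5ABC libraries at day 2, against 7.52 and 7.25 in shLuc libraries (-0.95, SE 0.18, adjusted p 0.0130 by limma), which left 51.8% of the shLuc level. Tk1, the salvage enzyme for thymidine, had a change of -0.83 and was not called (adjusted p 0.0717, 0.0115 with the block). Dut, which removes dUTP, had a change of -0.23 with overlapping groups.

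Among the genes that follow the fork, Chaf1a, the large subunit of the histone chaperone CAF-1, had 7.42 and 7.21 in shKdm5ABC libraries at day 2, against 8.18 and 7.88 in shLuc libraries (-0.71, SE 0.16, adjusted p 0.0254 by limma). Its partner Chaf1b had 6.11 and 5.82 in shKdm5ABC libraries, against 7.13 and 6.55 in shLuc libraries (-0.87, SE 0.31, adjusted p 0.113, 0.00452 with the block). Chaf1b was lower without overlap at all 3 times, with 6.03 and 5.65 in shKdm5ABC and 6.69 and 6.44 in shLuc libraries at day 0, and 5.53 and 4.56 in shKdm5ABC and 6.03 and 5.72 in shLuc libraries at 4 hours.

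Dnmt1, the maintenance DNA methyltransferase, had its highest means at 4 hours. In shLuc libraries it had 7.22 and 7.26 at day 0, 8.33 and 8.36 at 4 hours and 8.25 and 7.87 at day 2. In shKdm5ABC libraries it had 7.13 and 7.23, then 8.33 and 8.57, then 7.70 and 7.50, a day 2 difference of -0.46 (adjusted p 0.0807, 0.0248 with the block). Uhrf1, which brings Dnmt1 to newly copied DNA, and Ung, the uracil glycosylase, had changes of -0.76 and -0.78 and were not called (adjusted p 0.0432 and 0.0126 with the block).

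Across the 53 genes the day 2 knockdown change correlated with the size of the shLuc rise (Pearson r -0.58, Spearman rho -0.56), a description over genes that share the shLuc day 2 libraries in both quantities. With the shLuc level at day 0 r was 0.50, and with the shLuc change at 4 hours it was 0.03 (53 genes, with no library in common with the day 2 change). Genes with the E2F words had a median day 2 change of -0.58 (6 of 16 called lower) and genes without them -0.61 (10 of 29). The shLuc rise from day 0 to day 2 had a median of 1.33 in those with the words and 1.5 in those without.

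KDM5A was present at most of these promoters. A KDM5A peak lay within 1000 bp of the start of 45 of the 53 genes (84.9%), beside 69.8% of the genes tested in RNA. The input had a median of 15.3 tags in the same 45 peaks, and the KDM5A libraries 396 and 159 at day 0, 374 and 202 at 4 hours and 411 and 299 at day 2, as tags scaled to a common library total. Over the highest promoter peak of each of 11076 genes, the medians were 218 and 96.0, then 195 and 111, then 220 and 164, with 11.7 in the input. At day 2, 43 of the 45 lay above the median of those gene promoters and 25 above their 75th percentile. A KDM5A peak shows where the protein was cross-linked and does not by itself show an effect on the gene.

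The 8 genes with no KDM5A peak of their own were Fen1, Mcm4, Orc1, Orc3, Orc4, Orc6, Pole and Prim2. For 4 of them a neighbour on the other strand starts within 281 bp and the table assigns a peak to that neighbour, with 991 mean tags at Tmem258 beside Fen1, 776 at Prpf38a beside Orc1, 338 at Mbd5 beside Orc4 and 316 at Rars2 beside Orc3. The table gives each peak to 1 gene, so absence from a member's name does not show absence of KDM5A from its start.

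The highest KDM5A signals were at Rfc4, Cdc45 and Rfc1. Rfc4 (mm9 chr16:23127220-23128703, 158 bp upstream of the start) had 863 and 382 tags at day 0, 837 and 654 at 4 hours and 1180 and 622 at day 2, with 13.5 in the input. The Gmnn peak (chr13:24852787-24854347) had 341 and 113 tags at day 0, 260 and 106 at 4 hours and 336 and 259 at day 2, and the Rrm2 peak (chr12:25391553-25394211) had 262 and 122, then 301 and 158, then 331 and 303. The lowest were at Mcm3 (chr1:20809679-20810833), with 198 and 88.1 at day 0, 173 and 69.8 at 4 hours and 150 and 178 at day 2, and at Mcm10. At Rfc4, Gmnn and Mcm3 the libraries of the 3 times overlapped, while at Rrm2 and Mcm10 both day 2 libraries lay above both libraries of each other time, which was so for 9.87% (day 0) and 16.9% (4 hours) of gene promoters.

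The Gins1 peak had 535 and 285 tags at day 0, 507 and 359 at 4 hours and 683 and 380 at day 2. The Cdt1 peak had 556 and 188, then 478 and 307, then 567 and 456, and the Tyms peak had 374 and 163, then 306 and 160, then 413 and 281. In each of these the replicate 1 library was above the replicate 2 library at all 3 times, and the times overlapped. The Rrm1 peak had 428 and 181 tags at day 0, 358 and 264 at 4 hours and 515 and 310 at day 2. The Dnmt1 peak had 556 and 201, then 551 and 375, then 570 and 398. The Cdc6 peak had 218 and 107 at day 0, 265 and 258 at 4 hours and 241 and 240 at day 2, with close replicates at the later times and not at day 0. The Dbf4 peak had 236 and 91.5, then 193 and 72.3, then 281 and 201, so its day 2 libraries lay above both 4-hour libraries.

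By role the median day 2 signal was 435 tags in 13 helicase genes, 382 in 5 chromatin genes, 347 in 5 nucleotide genes, 341 in 17 polymerase and fork genes and 340 in 5 licensing genes. Of the genes shown library by library in RNA, Gins1, Cdt1 and Dnmt1 had day 2 means at the percentiles 91.6, 90.7 and 89.2 of gene promoters, while Dbf4 and Cdc6 were at 60.7 and 60.5.

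No change of KDM5A over time was called at these promoters. Limma called 0 of the 45 in each of the 3 comparisons, with 0 at an unadjusted p under 0.05, where 0.173% of all 87525 peaks were called between day 2 and day 0, 0.607% between day 2 and 4 hours and 0.0606% between 4 hours and day 0. By edgeR on reads recovered from the values 0 were called as well, with 0, 3 and 1 at an unadjusted p under 0.05. The limma SE ran from 0.62 (Mcm3) to 1.01 (Cdc45) on the log2 scale, so changes of that size would not have been called. For KDM5A the fit replaced the spread of each peak by the trend over all peaks at its signal level. These SE and p therefore do not measure the replicate spread of the single gene. The estimates for day 2 minus day 0 ran from 0.09 (Chaf1a) to 0.82 (Rrm2). With each library centred on its promoter median they ran from -0.29 to 0.44 in the same 2 genes. The day 0 replicate 2 library stood apart, with 19.4% of its tags in peaks against 26.8% to 42.5% in the other 5 libraries. The ratio of day 2 to day 0 at the 45 promoters was 1.11 in replicate 1 (1.01 over all gene promoters) and 1.84 in replicate 2 (1.74 over all), and the part of this library in the comparison was not tested. Mcm10, Cdc6, Rrm2 and Tk1, 4 of 45, had both day 2 libraries above both day 0 libraries, a share near the 9.87% of gene promoters.

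**Figure D4:**
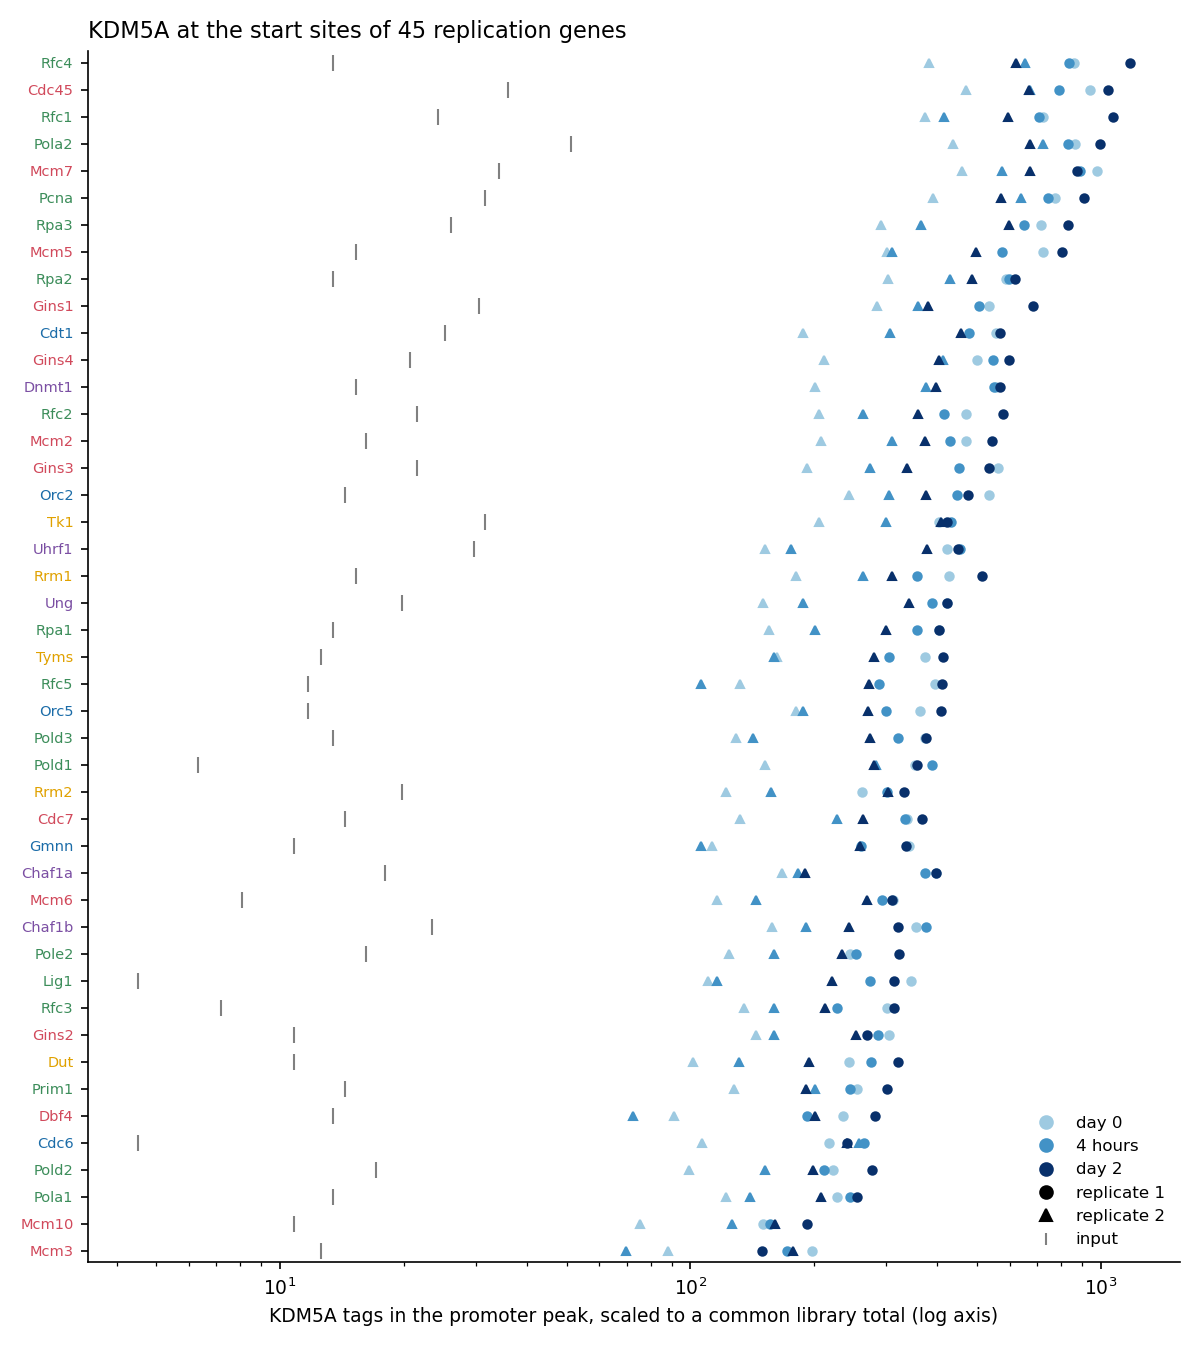
KDM5A tags in the promoter peak of 45 genes, scaled to a common library total and on a log axis, with 1 row per gene ordered by the day 2 mean, colours from light to dark for day 0, 4 hours and day 2, circles for replicate 1, triangles for replicate 2 and ticks for the input. All KDM5A points lie to the right of the input ticks, and the day 0 triangles (replicate 2) lie leftmost in most rows.

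The median RNA change at day 2 was -0.64 in the 45 genes with a peak (18 called lower) and -0.38 in the 8 without (1 called lower, Fen1), and 4 of those 8 share a start region with a peak assigned to a neighbour. Across the 45 genes the KDM5A tags at day 2 and the RNA change correlated with r 0.21 (rho 0.20), a description over genes measured in the same libraries.

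KDM5C was mapped at day 2 only, in 2 libraries with no control group, so its levels are described without a test. A KDM5C peak lay within 1000 bp of the start of 10 of the 53 genes (18.9%), beside 14.1% of the genes tested in RNA. These were Cdc45, Dut, Gins2, Mcm6, Orc1, Pold1, Rfc3, Rfc5, Tyms and Ung. Their median was 35.6 and 17.2 tags in the KDM5C libraries and 2.70 in the input, and 7 of the 10 had a mean of at least 20 tags.

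Pold1, the catalytic subunit of polymerase delta, had the highest KDM5C signal with 78.1 and 24.6 tags and 3.60 in the input (chr7:51803688-51805468). Tyms had 50.9 and 18.5 tags and 4.50 in the input (chr5:30399058-30400060). Orc1, which has no KDM5A peak of its own, had the lowest with 10.2 and 9.84 tags and 0.900 in the input. The RNA change at day 2 had a median of -0.66 in the 10 genes with a KDM5C peak (4 called lower) and -0.60 in the 43 without (15 called lower).

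The names of at least 3 of the 6 pairs of H3K4me3 columns went against the RNA. Across 8391 genes, the H3K4me3 of the libraries labelled KDM5_KD_4h, taken as the deviation from the mean of all libraries, followed the RNA of shLuc cells at day 2 best (r 0.70), with r -0.24 against their own group, shKdm5ABC cells at 4 hours. Those labelled Control_4h followed the RNA of shKdm5ABC cells at day 0 best (r 0.61, own group -0.13), and those labelled Control_D2 followed shLuc cells at 4 hours (r 0.44, own group 0.08). The columns Control_D0, KDM5_KD_D0 and KDM5_KD_D2 followed their own groups best (r 0.49, 0.32 and 0.29), though KDM5_KD_D0 was nearly as close to shKdm5ABC cells at 4 hours (r 0.25). Control_4h and KDM5_KD_D0 thus followed the same RNA group best (r 0.61 and 0.32), so both cannot be that group. No column pair followed shKdm5ABC cells at 4 hours best, and the name KDM5_KD_D0 is therefore also in doubt. Adipoq, an adipocyte gene, had 174 and 161 H3K4me3 tags in the libraries labelled KDM5_KD_4h and 10.5 to 24.3 in those labelled Control_D2. Vdr, whose RNA was high at 4 hours (12.39 in shKdm5ABC and 12.58 in shLuc cells, means of 2) and low at day 0 (7.12 in shKdm5ABC and 7.0 in shLuc cells), had 2498 and 2077 H3K4me3 tags in the libraries labelled KDM5_KD_D0 and 549 and 612 in those labelled KDM5_KD_4h, so at this gene the name KDM5_KD_D0 also went against the RNA. The Vdr tags were 2881 and 2351 in the libraries labelled Control_D2 and 931 and 839 in those labelled Control_4h. No library was moved to another group here, and no direction with time or knockdown is drawn from H3K4me3.

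H3K4me3 marked the start of 45 of the 53 genes (84.9%), beside 62.0% of the genes tested in RNA. Those with no promoter peak in the table were Orc1, Orc4, Dbf4, Prim2, Pole, Lig1, Rrm2 and Tk1, and for Orc1, Orc4 and Dbf4 a neighbour on the other strand holds a peak. The mean over the 12 libraries ran from 205 tags at Prim1 (chr10:127451968-127452948) to 1619 at Orc6 (chr8:87822062-87825351), with a median of 622. The medians of single libraries lay between 506 and 687 tags, beside 550 to 675 over 9189 gene promoters. Mcm7 (1437), Rpa3 (1173) and Fen1 (1061) followed Orc6, and Mcm10 (213) and Cdc6 (268) were near the low end.

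Some promoters varied more between libraries than others. Cdc6 had 315 and 302 tags in the libraries labelled KDM5_KD_D0, 133 and 189 in Control_D0, 359 and 367 in KDM5_KD_4h, 255 and 265 in Control_4h, 370 and 339 in KDM5_KD_D2 and 134 and 186 in Control_D2. The Cdc6 libraries labelled Control_D0 and Control_D2 were thus below all the others. Over the 12 libraries Gmnn had 535 to 772 tags, Rrm1 423 to 670, Tyms 487 to 888, Cdt1 616 to 1258 and Mcm5 378 to 893. Over the 41 genes with both peaks, KDM5A tags at day 2 and mean H3K4me3 tags correlated with r 0.66, a description over start regions of the same cell line.

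**Figure D5:**
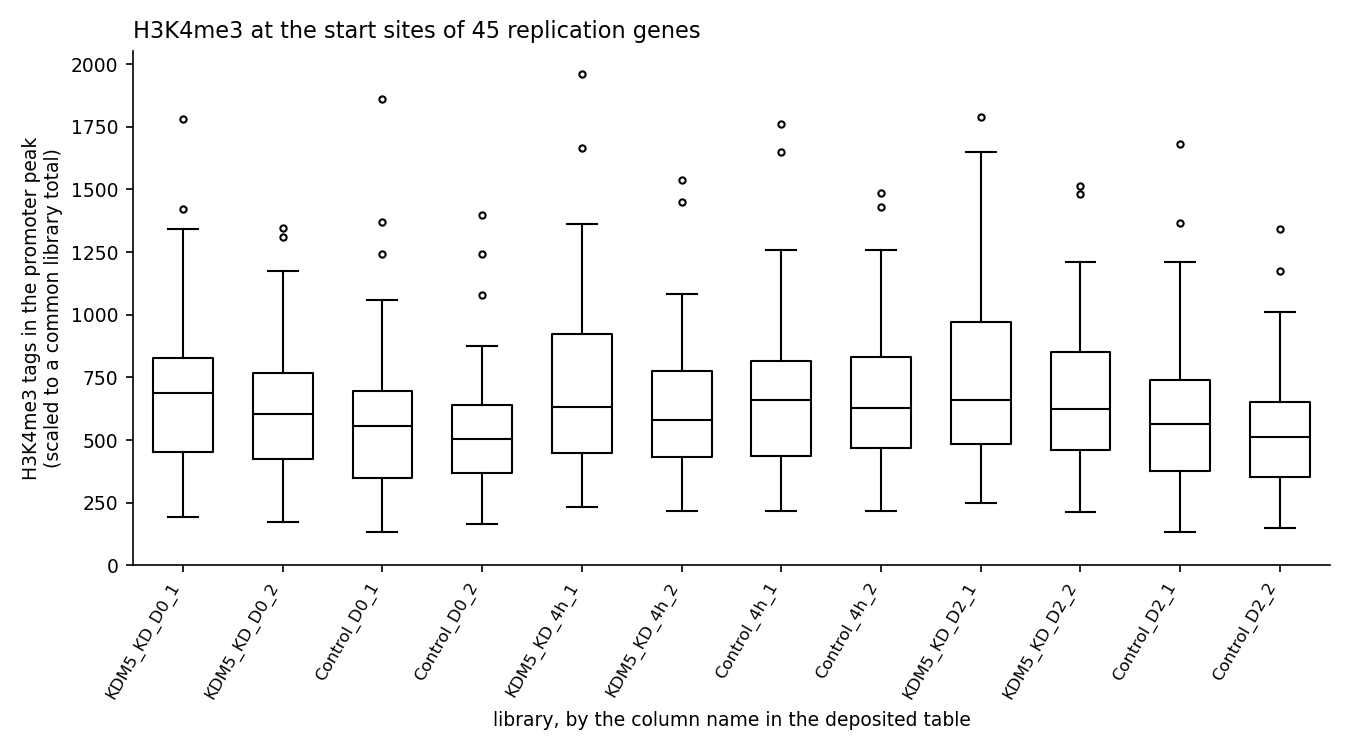
H3K4me3 tags in the promoter peaks of 45 genes, scaled to a common library total, in each of 12 libraries named by the column labels, with a line for the median, boxes from the 25th to the 75th percentile, whiskers to 1.5 box lengths and circles beyond. The medians lie between 506 and 687 tags, lowest in the columns labelled Control_D0 and Control_D2, and the labels of at least 3 column pairs go against the RNA.

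By the column labels, limma called 12 of 45 member peaks higher in KDM5_KD than in Control at day 0 (32.7% of all 10702 peaks called higher), 1 higher and 2 lower at 4 hours (1.62% and 34.3%), and 15 higher at day 2 (23.8%). Between times, 12 were higher in Control_4h than in Control_D0 (27.8%) and 11 lower in Control_D2 than in Control_4h (31.7%). In KDM5_KD libraries 2 were higher and 4 lower at 4 hours than at day 0 (1.12% and 34.9%), and 2 were higher at day 2 than at 4 hours (29.6%). Between day 2 and day 0 limma called 0, with 0 at an unadjusted p under 0.05 for Control (1.97% of all peaks called) and 3 for KDM5_KD (0.346%), and 0 for the difference of the knockdown effects, with 0 unadjusted (0.766%). With the replicate block the counts were 24, 13 and 27 for KDM5_KD against Control at the 3 times (60.5%, 58.2% and 53.1% of all peaks), 26 and 27 for the Control steps (59.3% and 60%), 21 and 9 for the KDM5_KD steps (58.6% and 50.7%), 7 for KDM5_KD day 2 against day 0 (17.5%) and 2 for the difference of effects (11.8%). The libraries labelled Control_4h, KDM5_KD_D0 and KDM5_KD_D2 had 78.8% to 83.2% of their tags in peaks beside 65.6% to 68.1% in the other 3 column pairs. The same split was seen in the match to RNA. Control_4h, KDM5_KD_D0 and KDM5_KD_D2 each followed an shKdm5ABC group best, and the other 3 pairs each followed an shLuc group best. The part of the share of tags in peaks in the calls was not tested.

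Other genes of replication and nucleotide metabolism were also measured at day 2. Of 28 other replication genes 7 were lower in shKdm5ABC cells by limma and 1 higher, with a median change of -0.50, and of 24 other nucleotide synthesis genes 3 were lower and 1 higher, with a median of -0.32. Of all transcripts 3.34% were called lower and 5.66% higher, so 1 higher gene in each list is not above that share. With the block these counts were 16 lower and 2 higher, and 13 lower and 1 higher, beside 14.2% of all transcripts called lower and 1885 of 13534 called higher. Pole4, a small subunit of polymerase epsilon, had 9.96 and 10.48 in shKdm5ABC libraries at day 2, against 11.12 and 11.50 in shLuc libraries (-1.09, SE 0.19, adjusted p 0.00932). Topbp1, which helps start replication, had 8.14 and 8.05 in shKdm5ABC libraries, against 8.77 and 8.66 in shLuc libraries (-0.62), and Wdhd1, a fork protein, had 6.65 and 6.60 in shKdm5ABC libraries, against 7.33 and 7.48 in shLuc libraries (-0.78). In all 3 genes both shKdm5ABC libraries lay below both shLuc libraries. Gmps, which makes GMP, had 7.81 and 8.14 in shKdm5ABC libraries, against 8.51 and 8.63 in shLuc libraries (-0.59).

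Samhd1 went the other way. This enzyme breaks down deoxynucleotides, the reverse of what ribonucleotide reductase makes. It had 9.85 and 9.47 in shKdm5ABC libraries at day 2, against 8.80 and 8.48 in shLuc libraries, a difference of 1.02 (SE 0.15, adjusted p 0.00447 by limma). At 4 hours it had 11.44 and 11.34 in shKdm5ABC and 10.58 and 10.63 in shLuc libraries (0.79, adjusted p 0.0375). At day 0 its levels were 8.04 and 7.88 in shKdm5ABC and 8.19 and 8.24 in shLuc libraries, and the difference between the day 2 and day 0 effects was 1.27 (SE 0.21, adjusted p 0.0434). Top1, a topoisomerase, was also higher in shKdm5ABC than in shLuc cells at day 2 (0.46). Pold4, a subunit of polymerase delta, had 8.42 and 8.28 in shKdm5ABC libraries at day 2, against 7.83 and 7.83 in shLuc libraries (0.52, adjusted p 0.0659, 0.0110 with the block).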

How the data were processed

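RNA values are log2 normalized tags per kb of transcript as deposited by the authors, in 1 table, and the size factors and pseudocount behind them are not given in the sources used here. ChIP values are signal, tags per peak scaled to a common library total, as deposited, with peaks merged over libraries, per the file's peak names. The submitters' processing notes name Bowtie2 (0.12.8), Subread, DESeq2, STAR, HOMER and the mm9 build. Of 17515 transcripts 17253 took their symbol from a RefSeq table, 144 from the peak tables, and 118 kept an ID, and the rows of Tyms and Orc4 carry non-coding variants of those genes. Strand use and the treatment of reads shared with copies of a gene are not given, and Orc2 and Orc3 start within 15 bp of a gene on the other strand.

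Limma (3.58.1, R 4.3.3) was fitted to the RNA values, and to log2 of ChIP tags plus 1, over all groups of an assay with a mean-variance trend and Benjamini-Hochberg adjustment over all features (threshold 0.05). The fit with no block was run on simulated data with independent noise in each library, so without any shared deviation of same-numbered libraries. That run required only that the median estimate lay close to the planted change. Residual degrees of freedom were 6 for RNA and H3K4me3 and 3 for KDM5A. Reads recovered from KDM5A tags were tested with edgeR (4.0.16). Tables were made with Python 3.11.15 and pandas 2.3.3.

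Same-numbered libraries deviated together in RNA (r 0.381 to 0.657 over 15 pairs) and H3K4me3 (0.504 to 0.790), and not in every pair for KDM5A (0.0470 to 0.333 over 3 pairs). The replicate number was therefore taken to pair RNA and H3K4me3 libraries, but only the fits with the block use this pairing. Calls by limma with no mention of the block leave it out. The members and lists were chosen with earlier results of these data known. The genes named first were the 3 with the smallest p per role at day 2, the extremes of the shLuc changes, and 3 per other list. Other names complete a complex or a count and were chosen after their values were seen. An input sample of virus-treated cells was not analysed here. The values of 1 gene of the other lists are not reported here. Alternatives were the block, scalings, filters, fits on the compared groups and leaving out each replicate.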

Additional observations from a re-analysis of the deposited data

How the results depend on the processing

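With the replicate block the RNA counts of members called were 7 at day 0, 4 at 4 hours and 42 at day 2 for the knockdown, 29 for shLuc 4 hours against day 0, and 7 (against day 0) and 12 (against 4 hours) for the knockdown effect of day 2. The H3K4me3 counts by column label were then 24 at day 0, 13 at 4 hours and 27 at day 2 for KDM5_KD against Control, 26 and 27 for the Control steps to 4 hours and from 4 hours to day 2, 21, 9 and 7 for KDM5_KD 4 hours against day 0, day 2 against 4 hours and day 2 against day 0, and 2 for the difference of knockdown effects. The block changed no other count over all the members by over 1.5 times, and its counts by role and for the other lists stand beside those results. For fits on the compared groups and fits that leave out a replicate, the share of all transcripts or peaks called is not given here. Whether their lower counts are particular to the members was therefore not tested. With only the compared groups, RNA gave 0 at day 2. By column label H3K4me3 then gave 1 at 4 hours and 9 at day 2 for KDM5_KD against Control, 1 and 5 for the Control steps and 1 for KDM5_KD day 2 against 4 hours. With each library centred on its median, H3K4me3 gave by column label 3, 9 and 3 for KDM5_KD against Control at the 3 times, 1 and 2 for the Control steps, and 15 and 0 for the KDM5_KD steps. All H3K4me3 counts here and below go by the column labels, of which at least 3 pairs go against the RNA. They are not counts of a knockdown or time effect.

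Leaving out each replicate gave 0 to 5 RNA calls for the knockdown at day 2, 12 to 15 for shLuc 4 hours against day 0 and 0 to 1 for the knockdown effect of day 2 against 4 hours. For H3K4me3 it gave 5 to 11, 1 to 4 and 6 to 11 for the knockdown at the 3 times, 2 to 6 and 5 to 8 for the Control steps, and 1 to 4 and 0 to 1 for the KDM5_KD steps. The small early changes of Cdc6, Chaf1a, Gmnn and Mcm10 in shLuc cells turned positive after quantile normalization (0.209, 0.0743, 0.0069 and 0.165). That of Cdc6 was 0.0607 after centring. Leaving out each replicate gave -0.518 to 0.506 for Cdc6 and -0.180 to 0.0440 for Chaf1a, and, from day 0 to day 2, -0.0161 to 0.564 for Chaf1b and -0.0869 to 0.501 for Pold2, both negative without shLuc day 2 replicate 1. The cause was not tested, beyond the smaller number of samples. In all, 190 counts stayed within 1.5 times and 54 did not, and of the single-gene values 396 kept direction and side of the threshold, 60 lost the call, 14 gained one and 10 changed sign. A second row per gene did not exist, and edgeR was not run for H3K4me3. RNA depth is unknown, and KDM5A 4-hour replicate 2, with 3870000 tags, sets the coarsest KDM5A step.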

Other observations

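The summed level of the 53 genes, on the log2 scale, was 13.42 and 13.35 in shKdm5ABC libraries at day 2, against 14.05 and 13.83 in shLuc libraries. At 4 hours the order was the other way, with 12.97 and 13.03 in shKdm5ABC libraries and 12.90 and 12.93 in shLuc libraries, although 35 of the 53 genes had a lower mean in shKdm5ABC cells at that time (median change -0.10), and Rrm2, one of the most abundant, had a change of 0.84 that was not called. At day 0 the sums were 12.53 and 12.53 in shKdm5ABC and 12.60 and 12.62 in shLuc libraries. Over the 12 libraries the transcripts whose level was most like this sum, of 11572 compared, were Leo1 (Pearson r 0.988), Rabepk (0.986), Med8 (0.986), Tex30 (0.983) and Cops3 (0.982), none of which is a member. These values describe the same 12 libraries and carry no test.

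Of the other replication genes 23 of 28 were higher at day 2 than at day 0 in shLuc cells by limma and 2 were lower, and of the other nucleotide synthesis genes 18 of 24 were higher and 1 was lower. Of all transcripts 27.1% were called higher and 27.8% lower. Top1 and Samhd1, which were higher in shKdm5ABC cells at day 2, rose by 2.78 and 2.39 on the log2 scale between day 0 and 4 hours in shLuc cells and fell by 2.04 and 1.96 between 4 hours and day 2.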
